A study of Mus musculus with 7 samples.

Results

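The 37 genes of the mouse mitochondrial genome were followed in 7 single MII oocytes, the mature eggs that wait in the second meiotic metaphase for fertilization. They are the 37 of 37620 gene identifiers whose mouse symbol starts with mt-, and they comprise 13 protein-coding genes, 2 rRNA genes and 22 tRNA genes. Transcript levels were compared between 3 oocytes labelled WT (WT1, WT2 and WT4), with the genotype Hiraf/f (floxed Hira alleles), and 4 labelled KO (KO1 to KO4), with those alleles and Zp3-Cre. The titles of all 7 samples, WT included, carry the tag [Zp3-Cre]. Zp3 is a gene of growing oocytes, so its promoter drives Cre, and deletion of a floxed gene, in the oocyte after growth has begun. Hira encodes a histone chaperone that places the histone variant H3.3 into chromatin. Each library came from 1 oocyte, and the labels used here name no animal, strain, age or day. A genotype therefore counts as 1 sample, no test is given, and each SD below is a spread between single cells.

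Mitochondrial DNA is a small circular genome present in very many copies in the oocyte, which inherits and passes on nearly all of the mitochondria of the embryo. Both strands are transcribed from the noncoding control region into long precursors, and excision of the tRNAs that lie between the other genes releases the separate mRNAs and rRNAs. The proteins are core subunits of respiratory complexes I, III and IV and of the ATP synthase, complex V, and all other subunits are made from nuclear genes. Genes of a strand therefore share a precursor, and the level of each mature RNA also depends on its processing and decay.

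Reads assigned to genes ranged from 15404290 to 26048214 per oocyte, with overlap between the genotypes. Hira, the targeted gene, was at 0.291 to 0.347 FPKM (fragments per kilobase of gene, scaled to the reads of the library) in the WT oocytes and at 0.0242 to 0.0997 in the KO oocytes. All 9 oocyte markers were above a filter of FPKM 1 in 3 libraries, and their summed level was 6150 to 6854 FPKM in WT and 4277 to 4514 in KO oocytes. Most of that sum came from the 3 markers that were lower in every KO oocyte, as were 8.94% of all genes above the filter. The other markers overlapped between the genotypes. Markers of the surrounding cumulus and granulosa cells were nearly absent: 13 of 14 had a mean under FPKM 1 in each genotype, and the defining markers Amh, Foxl2 and Lhcgr were at 0 in every library. The summed level of these 14 was 3.37 to 4.18 in WT and 3.93 to 7.01 in KO oocytes, and Kitl was the one above the filter. The share of the authors' scaling total that fell in genes was 82.5% to 83.8% in KO and 84.0% to 85.5% in WT oocytes, without overlap. The part of these differences in the results below was not tested.

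The share of reads taken by mitochondrial transcripts did not separate the genotypes. Mitochondrial genes took 3.22% of reads in genes in WT1, 2.45% in WT2 and 2.71% in WT4, and 4.12%, 2.44%, 3.25% and 2.49% in KO1 to KO4. The genotypes overlapped, and the difference of 0.28 percentage points was set by KO1, without which it was -0.07. The exact 95% binomial interval of each share was narrow (4.11% to 4.13% in KO1), so counting error was far smaller than the spread between oocytes. Such intervals cover counting error only, because reads of amplified cDNA are not independent molecules.

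Within a genotype the mRNAs moved together from oocyte to oocyte. Of the 12 mRNAs with more than single reads, all 12 were highest in KO1 and second in KO3 among the KO oocytes. In the WT oocytes, 11 of these 12 were highest in WT1 and 10 were lowest in WT2. Levels of mt-Nd1, a complex I subunit, were 1434, 1153 and 1225 FPKM in WT1, WT2 and WT4, and 2036, 909, 1518 and 951 in KO1 to KO4. The KO oocytes thus lay both above and below the WT oocytes. For 0 of the 13 mRNAs did the FPKM of the genotypes fail to overlap, against 18.9% of genes above the filter that were higher in every KO oocyte and 8.94% that were lower. This depended on scaling: with median-ratio scaling mt-Nd2 and mt-Cytb were lower in every KO oocyte, and with quantile normalization mt-Co1 and mt-Co2 were higher in every KO oocyte. Fewer mitochondria and less RNA per mitochondrion cannot be told apart in such values.

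The order of levels per gene length was led by mt-Cytb, cytochrome b of complex III, at 6202 ± 842 FPKM in WT (SD, n = 3) and 4753 ± 1277 in KO oocytes (SD, n = 4). It was followed in both genotypes by the complex IV subunits mt-Co3 (2916 ± 516 in WT) and mt-Co2 (2759 ± 557 in WT), the large rRNA mt-Rnr2 and the complex IV subunit mt-Co1 (1852 ± 297 in WT). In WT oocytes mt-Cytb stood clear of mt-Co3, and mt-Co1 of the next gene, mt-Nd3 of complex I (1306 ± 195), while mt-Co3 and mt-Co2 overlapped. In KO oocytes mt-Cytb, mt-Co3 and mt-Co2 overlapped by range, although mt-Cytb was the highest of them in each oocyte. The lower end held mt-Atp8 of complex V (293 ± 29.2 in WT) and mt-Nd6 of complex I (267 ± 74.9 in WT), which overlapped in WT. mt-Atp8 was the higher of them in 2 of 3 WT oocytes and in 0 of 4 KO oocytes. Whether rRNAs and each of the mRNAs enter the amplified cDNA equally was not tested. The order is thus one of FPKM and not of RNA molecules.

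**Figure D1:**
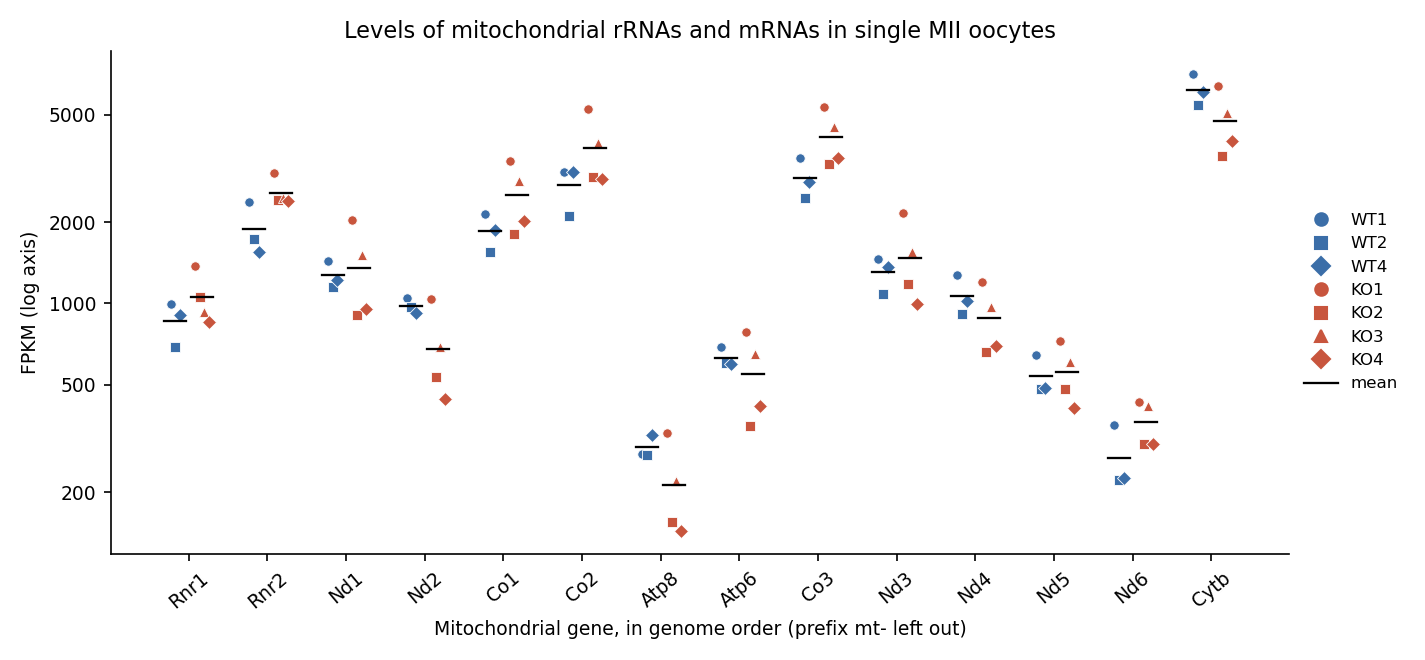
FPKM on a log axis of the 2 rRNAs and 12 mRNAs of the mitochondrial genome, in genome order, with 1 point per oocyte and a bar at the mean of each genotype (3 WT, 4 KO). KO1 was the highest KO oocyte for all 12 mRNAs, and mt-Rnr2 was the one gene shown whose KO points all lay above the WT points (2387 to 3031 against 1557 to 2379 FPKM).

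Set side by side, the mRNAs did not shift as a group: those of complex IV had positive differences, and those of complexes III and V negative ones. Those of complex I had both signs. The difference used is that of the mean log2(FPKM + 1), taken as KO minus WT. Its median over the 13 mRNAs was 0.02, against 0.18 over the 8033 genes above the filter and -0.14 over the 348 nuclear genes at a mean of FPKM 100 and over. None of the 13 was over 1.5-fold higher, a size reached by 22.6% of all genes but by only 18 of those 348. mt-Nd2 was over 1.5-fold lower, which held for 7.92% of all genes and for 61 of the 348. That call was near the limit: the mt-Nd2 difference of -0.61 fell short of 1.5-fold with quantile normalization (-0.40), with scaling to nuclear reads (-0.58), and without WT1 (-0.56), KO2 (-0.52) or KO4 (-0.43). The difference was 0.49 for mt-Co3, 0.42 for mt-Co2 and 0.41 for mt-Co1. For mt-Cytb it was -0.41, for mt-Nd4 -0.31 and for mt-Nd2, like mt-Nd4 a membrane subunit of complex I, -0.61. The signs of these 6 were the same with median-ratio scaling, which moved the median of all genes to -0.01, and with quantile normalization, where mt-Cytb was at -0.01. That of mt-Atp6 (-0.26) was 0.01 with quantile normalization. The difference of mt-Nd6 of complex I was 0.45, above those of mt-Co1 and mt-Co2, and 0.21 to 0.67 over the settings tried. Median-ratio scaling also evened out the background, with 14.7% of all genes then over 1.5-fold higher and 14.2% over 1.5-fold lower, and placed 0 mitochondrial mRNAs in the first set and 3 in the second.

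The make-up of the mitochondrial mRNA pool separated the genotypes, although its size did not. Each mRNA was expressed as a percent of the summed FPKM of the 13 mRNAs in the same oocyte, which removes any scaling between libraries. The 3 mRNAs of complex IV, cytochrome c oxidase, made up 37.8%, 35.4% and 38.8% of the pool in WT1, WT2 and WT4. They made up 48.1%, 49.8%, 49.0% and 50.0% in KO1 to KO4, a difference of 11.9 percentage points with no overlap. mt-Cytb alone made up 30.9%, 31.5% and 30.3% in the WT oocytes. Its share in KO1 to KO4 was 21.97%, 21.8%, 22.2% and 24.0%, lower in every KO oocyte (30.9% ± 0.610 in WT, SD, n = 3, and 22.5% ± 1.01 in KO, SD, n = 4). The difference of -8.44 percentage points was -5.46 with quantile normalization. In a pool of only the mRNAs without a nuclear copy it was -4.91, on a different base. mt-Cytb made up 65.8% to 67.9% of that pool in WT and 60.2% to 65.6% in KO oocytes. Relative to its share, mt-Cytb thus fell far less there, and the genotypes nearly touched.

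All 3 subunits of complex IV shared this direction. mt-Co1, the catalytic subunit that binds oxygen, was at 8.97% to 9.32% of the pool in WT and 11.2% to 12.4% in KO oocytes. mt-Co2, which accepts electrons from cytochrome c, was at 12.3% to 15.4% and 17.1% to 18.2%. mt-Co3 was at 14.1% to 15.1% and 18.4% to 20.6%. Only these 3 of the 13 had a share higher in every KO than in every WT oocyte, and all 3 belong to a single complex. Among the 348 nuclear genes at a mean of FPKM 100 and over, 26.4% were likewise higher within their own pool. The count of 3 of 13 is no larger a part than that. The mean share of mt-Nd6 of complex I was also higher in KO oocytes, at 1.32 times that of WT, with overlap.

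The 5 mRNAs with a lower share in every KO oocyte belonged to complexes I, III and V. Besides mt-Cytb these were mt-Nd2 (4.55% to 5.63% in WT, 2.64% to 3.57% in KO) and mt-Nd4 (5.12% to 5.53% in WT, 4.11% to 4.22% in KO). The ATP synthase subunits mt-Atp6, which lines the proton path, and mt-Atp8 were at 2.99% to 3.48% and 1.21% to 1.63% in WT. In KO oocytes they were at 2.17% to 2.83% and 0.860% to 1.14%. The other complex I mRNAs, mt-Nd1, mt-Nd3, mt-Nd5 and mt-Nd6, overlapped between the genotypes, as did mt-Nd4l with its single reads. Complex I as a whole was at 26.2% to 28.0% in WT and 22.7% to 26.1% in KO oocytes.

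Unequal shares without overlap were common among abundant nuclear genes as well. Of the 348 nuclear genes at a mean of FPKM 100 and over, 26.4% had a share of their own pool that was higher in every KO oocyte and 12.4% one that was lower in every KO oocyte. Among the 13 mitochondrial mRNAs these counts were 3 and 5. A further comparison used the ratio of 2 mRNAs within an oocyte. Of the 66 pairs among the 12 mRNAs, 41 (62.1%) had a ratio without overlap between the genotypes, against 34.6% of 60378 pairs of such nuclear genes. Pairs share genes and are not independent, so these percentages describe the 7 libraries. Most of the 12 mRNAs also share a precursor, and their levels moved together (median pairwise correlation 0.735). Pairs of nuclear genes are thus an unlike standard.

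**Figure D2:**
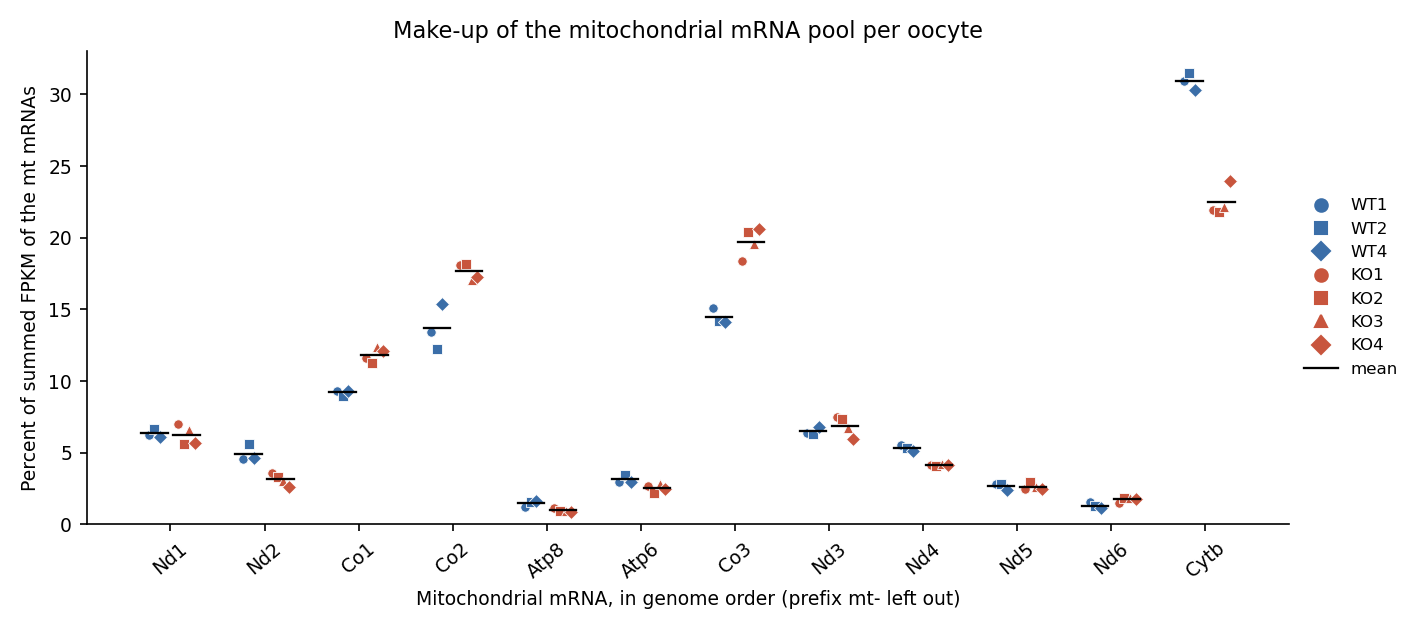
Share of each mitochondrial mRNA in the summed FPKM of the mitochondrial mRNAs of the same oocyte, in percent, in genome order, with 1 point per oocyte and a bar at the genotype mean. The KO points of mt-Co1, mt-Co2 and mt-Co3 all lie above the WT points, and those of mt-Cytb (21.8% to 24.0% against 30.3% to 31.5%) lie below.

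The ratios of complex IV mRNAs to mt-Cytb did not overlap between the genotypes. The ratio of mt-Co1 to mt-Cytb was 0.301, 0.285 and 0.308 in WT1, WT2 and WT4, and 0.528, 0.516, 0.559 and 0.506 in KO1 to KO4. It was 1.77 times as high in KO oocytes, although the mt-Co1 level itself ranged from 1814 to 3375 FPKM among the KO oocytes. For mt-Co2 and mt-Co3 against mt-Cytb the KO ratios were 1.78 and 1.88 times those of WT. Such a rise was not particular to complex IV. For mt-Nd6 and mt-Rnr2 against mt-Cytb the KO ratios were 1.82 and 1.84 times those of WT, also without overlap. Within complex I, mt-Nd2 stood to mt-Nd1 at 0.729 to 0.842 in WT and 0.456 to 0.590 in KO oocytes. The ratio of mt-Nd4 to mt-Nd5 was 1.89 to 2.11 in WT and 1.37 to 1.70 in KO oocytes.

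The ratio of mt-Nd6 to mt-Nd5 compares neighbours on opposite strands, since mt-Nd6 is the only mRNA gene annotated on the minus strand. It was 0.461 to 0.548 in WT and 0.597 to 0.736 in KO oocytes, higher in every KO oocyte. The ratio of mt-Atp8 to mt-Atp6, which share 1 transcript, overlapped (0.404 to 0.546 in WT, 0.338 to 0.442 in KO). GC content and length were given a look because they can bear on amplified cDNA. Across the 12 mRNAs the difference had a Spearman correlation of 0.30 with GC content and -0.10 with length. Across 345 abundant nuclear genes the correlation with GC was 0.15. The part of GC content in the differences was not tested.

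**Figure D3:**
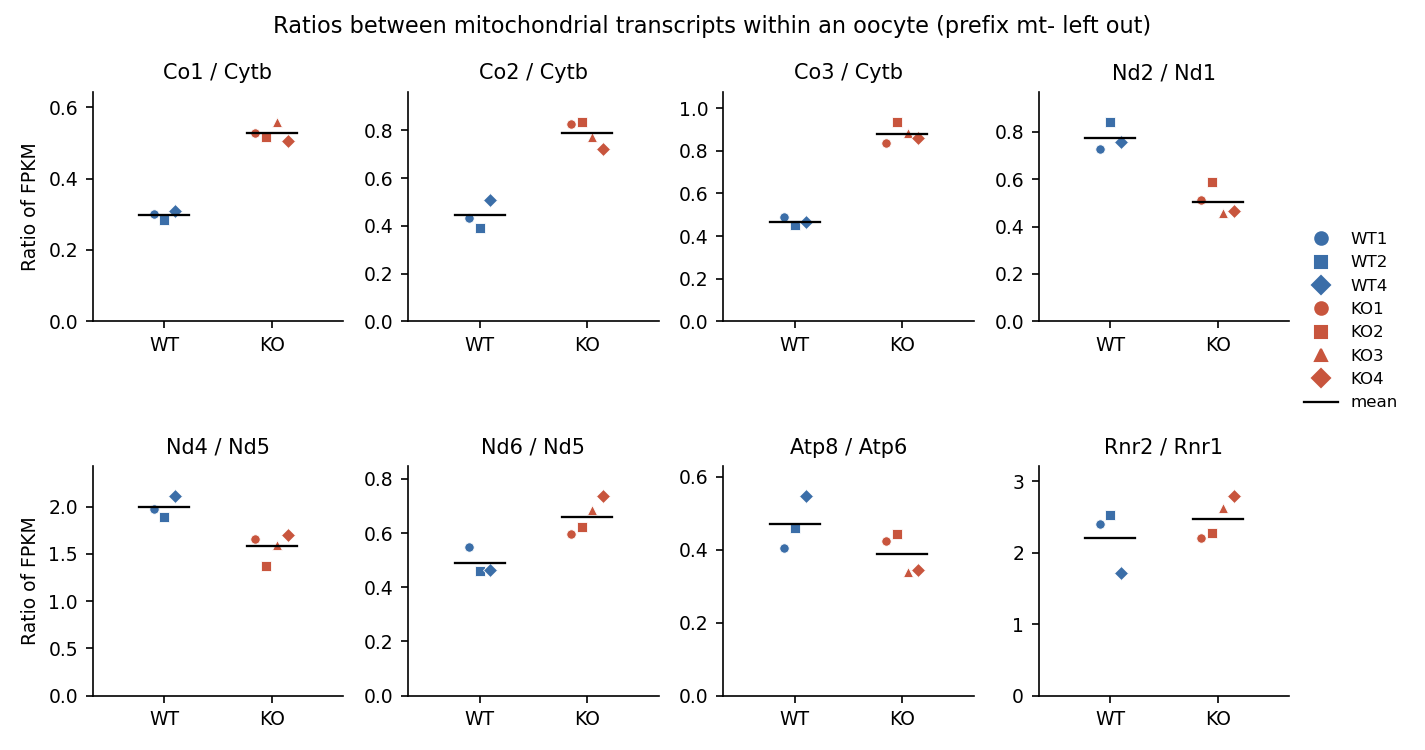
Ratios of FPKM between pairs of mitochondrial transcripts within an oocyte, with 1 point per oocyte and a bar at the genotype mean, on axes that start at 0. The genotypes are separate for the complex IV mRNAs against mt-Cytb and for Nd2 / Nd1, Nd4 / Nd5 and Nd6 / Nd5, and they overlap for Atp8 / Atp6 and Rnr2 / Rnr1.

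Genes that share bases limit which reads can be assigned, and the 2 pairs of mRNAs that lie on a common transcript are shown. mt-Atp8 and mt-Atp6 overlap by 43 bases, and mt-Nd4l and mt-Nd4 by 7. Not shown are mt-Atp6 and mt-Co3 (a gap of -1 base) and, on opposite strands, the ends of mt-Nd5 and mt-Nd6 (a gap of -14 bases), which touches the ratio of mt-Nd6 to mt-Nd5. A read across such a stretch belongs to both genes. In the first line the capitals mark the start codon of mt-Atp6 within mt-Atp8, and in the second, the last 60 bases of mt-Nd4l, they mark the bases shared with mt-Nd4 (both from the GENCODE M21 transcripts, GRCm38, plus strand, chrM:7927-7969 and chrM:10114-10173).
mt-Atp8/mt-Atp6: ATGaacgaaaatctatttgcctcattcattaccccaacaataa
mt-Nd4l: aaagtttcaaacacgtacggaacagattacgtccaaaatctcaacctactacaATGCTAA

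mt-Nd4l, a small complex I subunit read from the same transcript as mt-Nd4, was nearly without reads. It had 1 read in WT1, KO2 and KO3 and 0 in the other oocytes, while mt-Nd4 was at 663 to 1271 FPKM. Bases 1 to 294 of its 297 are 100% identical to Gm10222, an annotated nuclear copy of mitochondrial sequence. Gm10222 was listed at 28.3, 28.3 and 24.6 FPKM in WT1, WT2 and WT4, and at 23.2, 25.6, 21.8 and 14.3 in KO1 to KO4, with overlap. Reads of mt-Nd4l and Gm10222 cannot be told apart, so neither value is read as the level of mt-Nd4l.

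Other mRNAs have such copies too, though not in the deposited table. At 99% identity or more, annotated nuclear transcripts of the GRCm38 reference cover 99.6% of mt-Co2 and of mt-Atp6, 99.9% of mt-Co3, 99.1% of mt-Nd3, 63.6% of mt-Nd4, 31.3% of mt-Co1 and 21.1% of mt-Atp8. None was found for mt-Nd1, mt-Nd2, mt-Nd5, mt-Nd6, mt-Cytb, the rRNAs, mt-Tn, mt-Tc or mt-Tp. How reads that match in several places were counted is not given in the sources used here. Among the mRNAs with copies, shares were higher in KO for mt-Co1, mt-Co2 and mt-Co3 and lower for mt-Atp6, mt-Atp8 and mt-Nd4. With the pool reduced to the 5 mRNAs without a copy, mt-Cytb made up 65.8% to 67.9% in WT and 60.2% to 65.6% in KO oocytes. mt-Nd2 was lower in every KO oocyte as well (9.88% to 11.7% in WT, 7.22% to 9.78% in KO), and mt-Nd1, mt-Nd5 and mt-Nd6 were then higher in every KO oocyte. Shares of a pool sum to a fixed total, so a lower mt-Cytb share raises the others.

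The rRNAs of the mitochondrial ribosome took a larger part of the mitochondrial reads in KO oocytes. Their part was 17.1%, 16.6% and 14.5% in WT1, WT2 and WT4, and 18.0%, 23.8%, 17.6% and 21.99% in KO1 to KO4, without overlap but with KO3 and WT1 close together. mt-Rnr2, the 16S rRNA of the large subunit, was at 2379, 1740 and 1557 FPKM in the WT oocytes and at 3031, 2408, 2451 and 2387 in KO1 to KO4. The lowest KO oocyte was just above WT1, and the KO mean was 1.36 times the WT mean. With median-ratio scaling the genotypes overlapped (1671 to 2325 in WT, 1983 to 2767 in KO), and the difference of 0.46 on the log2(FPKM + 1) scale was 0.21. Every KO above every WT oocyte was seen for 18.9% of genes above the filter. mt-Rnr1, the 12S rRNA of the small subunit, was at 690 to 993 FPKM in WT and 856 to 1376 in KO oocytes, with overlap, and the ratio of mt-Rnr2 to mt-Rnr1 overlapped too.

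Of the 22 tRNA genes, 19 had no read in any oocyte and 3 had reads: mt-Tp, mt-Tn and mt-Tc, the tRNAs for proline, asparagine and cysteine. A count of 0 allows up to 3 reads, which for a gene of the length of mt-Tf (68 bases) is 1.41 to 2.42 FPKM in these libraries. All 3 are among the 8 tRNA genes on the minus strand, and none of the 14 on the plus strand had a read. The other minus-strand tRNA genes had none either. The 3 with reads also lie beside sequence with no gene. Between mt-Tn and mt-Tc is the longest gap between annotated genes, 32 bases, and mt-Tp borders the control region. mt-Tf, at the other end of that region, had no read. The part of strand or of free sequence in these counts was not tested. Reads of a mature tRNA and of a longer transcript that runs through its gene cannot be told apart, nor can the strands, since the counting is not stated to use strand. The sequences are shown with the anticodon in capitals (GENCODE M21, GRCm38, minus strand, at chrM:15356-15422, chrM:5089-5159 and chrM:5192-5257).
mt-Tp: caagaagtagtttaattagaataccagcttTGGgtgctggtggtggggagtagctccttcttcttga
mt-Tn: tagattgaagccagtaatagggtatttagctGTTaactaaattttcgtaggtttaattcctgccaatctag
mt-Tc: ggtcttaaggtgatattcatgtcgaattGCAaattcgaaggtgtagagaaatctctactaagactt

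At a pseudocount of 1, mt-Tp had a larger difference between the genotypes than any other mitochondrial gene above the filter. At 0.1 that of mt-Tc, which rests on 0 to 5 reads per oocyte, was larger (2.08 against 2.03). Its level was 28.6, 21.1 and 25.4 FPKM in WT1, WT2 and WT4, from 39, 34 and 31 reads. In KO1 to KO4 it was 155, 108, 87.8 and 73.9 FPKM, from 200, 172, 184 and 128 reads. The genotypes were far apart, with KO4 lowest among the KO oocytes and WT1 highest among the WT oocytes. The mean was 4.23 times as high in KO (106 ± 35.2, SD, n = 4) as in WT oocytes (25.04 ± 3.74, SD, n = 3). Over the 4 KO oocytes 684 reads were found (95% Poisson interval 634 to 737) and over the 3 WT oocytes 104 (85.0 to 126). Scaled to depth, the KO rate was 4.11-fold that of WT (3.34 to 5.10, counting error only).

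The difference of 1.99 on the log2(FPKM + 1) scale was 1.76 with median-ratio scaling and 1.95 with quantile normalization. A difference over 2-fold was seen for 7.95% of genes above the filter. Only 0.921% of genes above the filter had a difference of that size or more, and mt-Tp ranked 74 among the 8033. It was also high against its neighbours. The ratio of mt-Tp to mt-Cytb was 0.00402, 0.00388 and 0.00419 in the WT oocytes and 0.0242, 0.0307, 0.0172 and 0.0184 in KO1 to KO4, which is 5.61 times as high. Against mt-Nd6, on the same strand, it was 3.05 times as high in KO oocytes (0.211 to 0.359 against 0.0808 to 0.113). In the WT oocytes mt-Tp had the order of mt-Cytb, with WT1 highest and WT2 lowest. Among the KO oocytes KO1 was highest for both, while KO2, lowest in mt-Cytb, had the second highest mt-Tp level.

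mt-Tp is the last gene before the noncoding control region, with mt-Tt directly on its other side and no annotated gene beyond it. Its neighbour mt-Tt had no read in any oocyte. Reads of mt-Tp can thus extend into sequence with no gene. The control region is no gene of the deposited table, so its own level was not analysed here.

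The other minus-strand tRNAs were too shallow for a comparison. mt-Tn had 11, 4 and 2 reads in WT1, WT2 and WT4 and 7, 6, 20 and 12 in KO1 to KO4, and mt-Tc had 4, 0 and 0 and 1, 1, 5 and 3. Both overlapped between the genotypes. With reads summed per genotype, the rate of mt-Tn was 1.65 times as high in KO (0.928 to 3.08). That of mt-Tc was 1.56 times as high (0.450 to 6.82). These intervals cover counting error only and not the spread between oocytes.

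**Figure D4:**
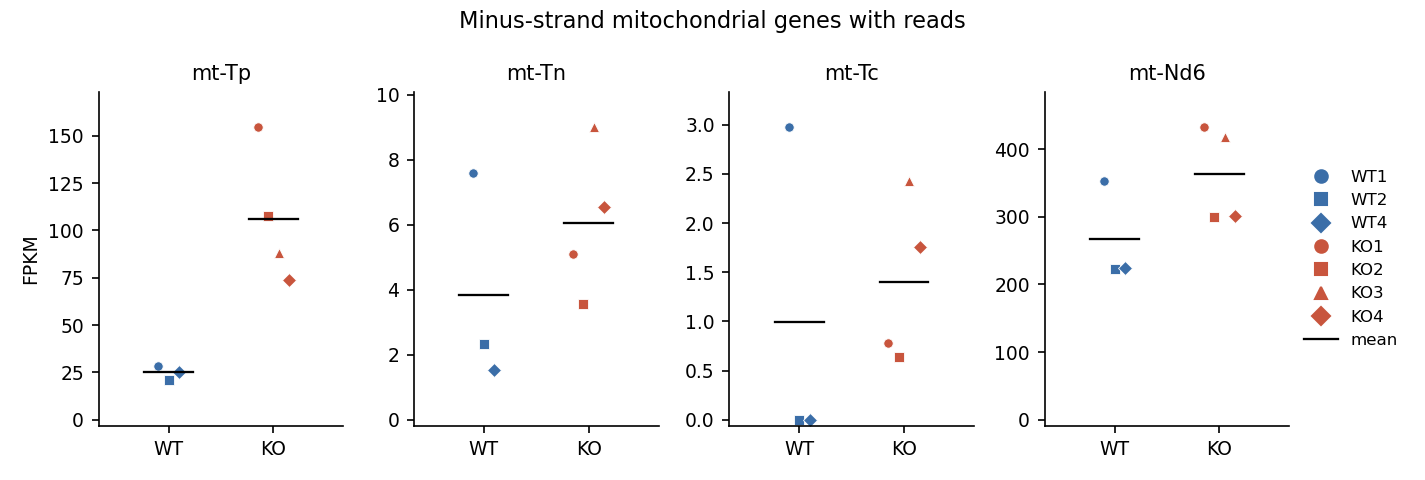
FPKM of the minus-strand mitochondrial genes with reads (mt-Tp, mt-Tn, mt-Tc and mt-Nd6), with 1 point per oocyte, a bar at the genotype mean and a separate axis per gene. The 4 KO points of mt-Tp (73.9 to 155) lie above the 3 WT points (21.1 to 28.6), and the genotypes overlap for the other genes.

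Nuclear genes that express the mitochondrial genome were examined in 5 lists. Of 73 genes listed 70 were found and 44 were above the filter. In KO oocytes 4 of these had a level more than 1.5-fold up and 2 a level more than 1.5-fold down. Their median difference was 0.21, against 0.18 over all genes, of which 22.6% and 7.92% passed those limits. The transcription list held genes with differences in both directions. Tfam, which packages mitochondrial DNA and activates its promoters, was at 1.09, 0.658 and 1.17 FPKM in WT1, WT2 and WT4 and at 3.79, 3.25, 1.88 and 2.51 in KO1 to KO4, higher in every KO oocyte. Tfb1m, a methyltransferase of the 12S rRNA, was at 13.9 to 30.7 in WT and 5.78 to 8.40 in KO oocytes, lower in every KO oocyte. Polrmt, the mitochondrial RNA polymerase, was under FPKM 1 in all 7 oocytes.

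Among genes that process mitochondrial RNA, 2 of the 13 that passed the filter had levels more than 1.5-fold up, no larger a share than the 22.6% of all genes. They were Hsd17b10 and Trmt10c, which encode subunits of mitochondrial RNase P, the enzyme that cuts the 5′ ends of tRNAs from the precursor. Hsd17b10 was at 0.222, 0.293 and 0.663 FPKM in WT1, WT2 and WT4 and at 2.78, 4.77, 4.44 and 2.28 in KO1 to KO4, so it passed the filter through the KO oocytes alone and had to differ. Trmt10c was at 6.06 to 6.64 in WT and 8.02 to 13.97 in KO oocytes. Neither overlapped between the genotypes. The other subunit, Prorp, was not analysed here.

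Of 7 genes of mitochondrial RNA stability and decay above the filter, none was over 1.5-fold higher and 1, Mtpap, was over 1.5-fold lower, where all genes gave 22.6% and 7.92%. Mtpap, the poly(A) polymerase of mitochondrial mRNAs, was at 85.6, 121 and 109 FPKM in WT1, WT2 and WT4 and at 70.3, 46.5, 57.2 and 61.1 in KO1 to KO4, lower in every KO oocyte. Pnpt1, a subunit of the degrading enzyme, was at 3.57 to 4.26 in WT and 4.71 to 8.41 in KO oocytes, without overlap. Lrpprc, which keeps mitochondrial mRNAs stable, overlapped (1.28 to 2.97 in WT, 2.06 to 4.16 in KO). Among translation factors Mtif2, which starts mitochondrial translation, was at 2.12 to 2.60 in WT and 3.95 to 4.99 in KO oocytes, and Gfm2 overlapped. The 7 replication genes above the filter were all within 1.5-fold, with Slc25a36 (0.219 to 1.92 in WT, 0.918 to 2.51 in KO) and Rnaseh1 (14.5 to 18.9 in WT, 16.0 to 29.9 in KO) the furthest apart.

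The nuclear partners of complex IV had a median near 0. All 10 were above the filter, none was over 1.5-fold apart (22.6% of all genes were higher and 7.92% lower by that much) or free of overlap (18.9% and 8.94%), and their median difference was -0.03, against 0.41 to 0.49 for mt-Co1, mt-Co2 and mt-Co3. Cox6a1 (25.8 to 71.7 FPKM in WT, 45.6 to 96.3 in KO) and Cox6c (13.1 to 48.2 and 30.6 to 51.3) were furthest apart. Medians for the partners of complexes I, III and V were -0.02, 0.19 and -0.08. Ndufs3 of complex I, at 1.68 to 2.86 in WT and 0.133 to 1.36 in KO oocytes, was the one partner gene above the filter without overlap. Of the KO oocytes only KO1 reached FPKM 1, so Ndufs3 passed the filter through the WT oocytes, where it was high. Its fellow subunit Ndufa9 (0.976 to 4.32 in WT, 2.62 to 7.74 in KO) had the opposite sign. Those furthest apart in the other complexes overlapped: Uqcr10 and Uqcr11 of complex III had differences of 1.01 and 0.61, and Atp5h and Atp5g2 of complex V had 0.72 and -0.95. Whether mitochondrial and nuclear subunits of a complex differ in their response was not tested.

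**Figure D5:**
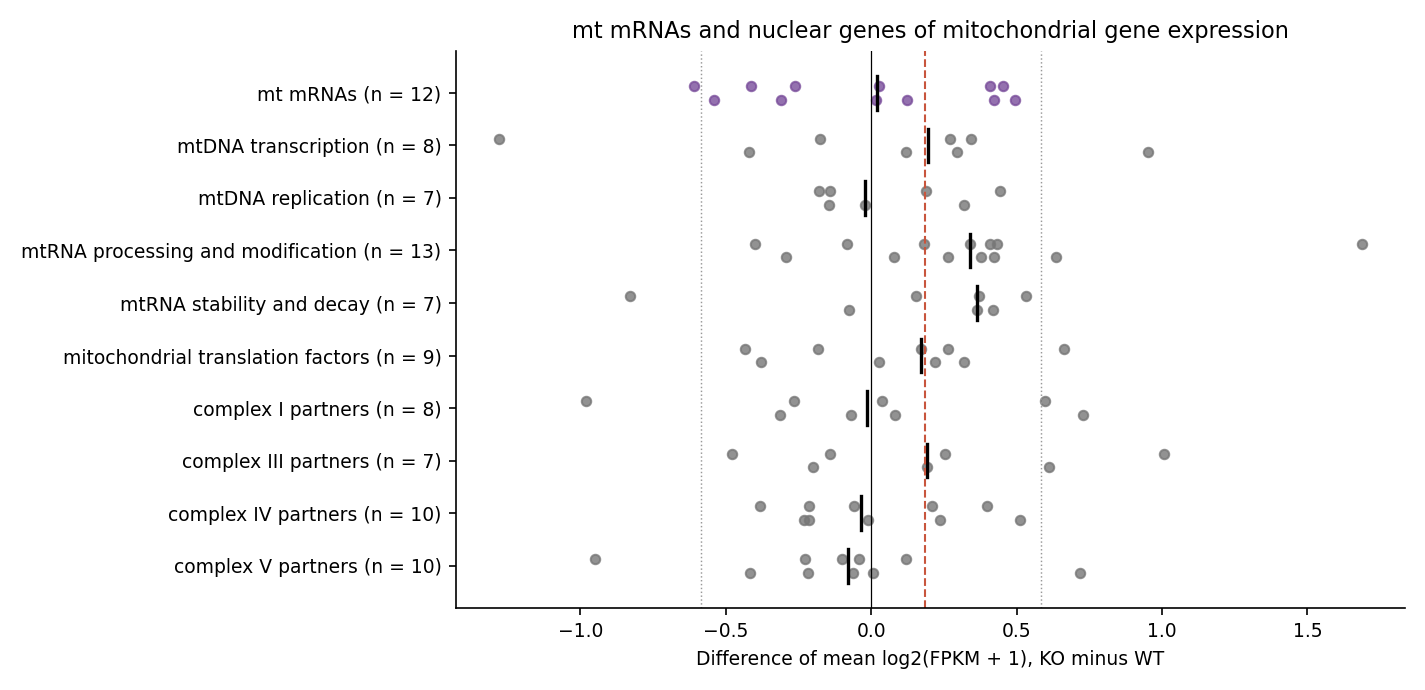
Difference between KO and WT in mean log2(FPKM + 1) for the 12 mitochondrial mRNAs and the nuclear genes above the filter in 9 lists, with 1 point per gene and a black bar at each median. The dashed line marks the median of all genes (0.18) and the dotted lines 1.5-fold. The mitochondrial mRNAs run from -0.61 (mt-Nd2) to 0.49 (mt-Co3), with mt-Nd1, mt-Nd5 and mt-Nd3 between 0.02 and 0.12 and mt-Nd6 at 0.45.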

How the data were processed

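The authors deposited unlogged FPKM values in 1 table, with genes as Ensembl identifiers and a column for each oocyte. The build mm9 and the tools HTSeq, edgeR 3.1.10, TopHat2 2.0.2, Bowtie 0.12.8, Bowtie2 and TopHat come from the submitters' processing notes, which give no role for each; strand use and the treatment of reads with several matches are not given in the sources used here. Per the labels' protocols, whole single oocytes went into a SMARTer cDNA reaction with amplification and ERCC spike-ins, which were not used here. Symbols, gene lengths, order and sequences came from GENCODE M21 (GRCm38), so coordinates are of that build and not of mm9.

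Reads were recovered from FPKM and length: with a single whole scaling total per library, all 120 mitochondrial values above 0 came out whole within 0.01. For the other genes the smallest length that gave whole reads was used, and these counts served only for totals and Hira. The procedure was tested on simulated data for mitochondrial genes and genes above the filter. A length taken too small gives too few reads, which was not tested for genes below the filter. Levels were compared as differences of mean log2(FPKM + 1), with a filter that asks for FPKM 1 or more in 3 or more libraries. No genotype test was made, because cells are not replicates and no animal is named. Named genes were the mitochondrial mRNAs and rRNAs, tRNAs with a value in at least 3 libraries, the 2 genes above the filter furthest apart in each nuclear list, Polrmt, Tfam, Lrpprc, Hira and nuclear copies. The tRNAs mt-Tf and mt-Tt and the cell markers Amh, Foxl2, Lhcgr and Kitl were named after their values were seen. The members and lists were chosen with earlier results of these data known. Nuclear copies were sought with blastn 2.17.0 against annotated transcripts. Alternatives were 3 scalings, pseudocounts of 0.1 and 5, other filters, leaving out each oocyte, and, added after seeing the data, quantile-normalized shares and the mRNAs without a nuclear copy. Python 3.11.15 was used.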

Additional observations from a re-analysis of the deposited data

Results flagged for a closer look

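In sets of 4 KO values, 3 of 46 had 1 oocyte far from the other oocytes of the set. Chance gives about 1 in 20, so this count was near that of chance. The sets share reads and are not independent. KO1 was each time the oocyte apart. Its mt-Rnr2 level was 3031 FPKM, its rRNA reads were 0.740% of reads in genes, and mt-Nd6 made up 1.49% of its mitochondrial mRNA pool.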

How the results depend on the processing

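The difference of mt-Tp kept its sign and stayed over 2-fold under every scaling, pseudocount and left-out oocyte tried (1.76 to 2.15). The number of mRNAs with a share that did not overlap was 8, was 8 to 9 when each oocyte was left out, and was 9 by reads and 7 with quantile normalization. It was 5 of 5 when only mRNAs without a nuclear copy were kept, but this count is unlike the others. Of these 5, mt-Nd1, mt-Nd5 and mt-Nd6 overlapped in the full pool. mt-Cytb made up most of the reduced pool, with genotypes close together (65.8% or more in WT, 65.6% or less in KO), and a lower mt-Cytb share raises the others. The complex IV difference of 11.9 percentage points was 10.9 to 12.6 when each oocyte was left out and 9.31 with quantile normalization. The number of mRNA pairs without overlap was 37 to 50. Direction of level was less settled: the median over 13 mRNAs was -0.22 with median-ratio scaling, 0.18 with quantile normalization, and -0.11 to 0.16 when each oocyte was left out. mRNAs over 1.5-fold higher numbered 0, but 3 with quantile normalization and 0 to 2 without an oocyte (2 without WT1, 1 without KO2). Those over 1.5-fold lower numbered 1, but 3 with median-ratio scaling, 0 with quantile normalization or with scaling to nuclear reads, and 0 to 2 without an oocyte (0 without WT1, KO2 or KO4 and 2 without KO1). The share of all genes over 1.5-fold higher, 22.6%, ran from 7.86% (pseudocount 5) to 30.8% (pseudocount 0.1), and that over 1.5-fold lower, 7.92%, from 3.55% (pseudocount 5) to 14.2% (median-ratio scaling). The cause was not tested. The mitochondrial share differed by 0.28 points of reads, by -0.07 to 0.49 when each oocyte was left out and by 1.39 as a share of summed FPKM. No paired analysis was possible because the labels tie no WT to a KO oocyte and the results come from no test. Depth limits mt-Tn, mt-Tc and mt-Nd4l.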
